A study of Mus musculus with 4 samples.

Results

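The Tcl1 gene cluster is a group of 6 related protein-coding genes on mouse chromosome 12, Tcl1 and Tcl1b1 to Tcl1b5, in a span of 76.8 kb (chr12:105146014-105222793, GRCm38). Its 6 members among the 53715 genes of the count table were chosen by symbol and position in the GENCODE M21 annotation. That rule uses no measured value, but the cluster was picked with results of these libraries in view, its levels and its knockdown-over-control changes included, so both are given as a description. All 6 passed the filter on low counts, which left 25565 genes. Poly(A) RNA of whole mouse embryos at the 2-cell stage, of a C57BL/DBA2 background, was sequenced from pre-amplified cDNA. The embryos had been injected as zygotes with 20 μM of siRNA to SPENH0335, which by the title of the study is likely an enhancer-derived RNA (knockdown, 2 libraries), or with 20 μM of the siRNA labelled siNC (control, 2 libraries), and all were cultured in KSOM, an embryo culture medium. The labels give neither the number of embryos in a library nor their collections. A p-value here covers the spread between libraries alone, and that spread may be technical.

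TCL1 proteins are small proteins that bind the kinase AKT and raise its activity, and human TCL1A is known as an oncogene of lymphoid cells. In the mouse the family is expressed in the oocyte and early embryo, and embryos of mothers that lack Tcl1 cleave poorly. The mouse carries 5 copies of Tcl1b where the human genome carries a single TCL1B. In the annotation the Tcl1b copies stand on the plus strand in the order Tcl1b2, Tcl1b1, Tcl1b5, Tcl1b3 and Tcl1b4, and Tcl1 follows on the minus strand. No other annotated gene overlaps the span of the cluster.

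Each member's first annotated transcript has 4 exons, with a coding sequence of 348 to 366 bases. The first 90 coding bases of each are shown because they tell the copies apart, which the counts of single members depend on. Capitals mark bases that are identical in all 5 Tcl1b copies in their alignment, and the line of Tcl1, which was not aligned, has none. The sequences are from GENCODE M21 transcripts on GRCm38.
Tcl1b2: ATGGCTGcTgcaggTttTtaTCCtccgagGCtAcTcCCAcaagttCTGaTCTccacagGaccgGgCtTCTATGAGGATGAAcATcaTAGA
Tcl1b1: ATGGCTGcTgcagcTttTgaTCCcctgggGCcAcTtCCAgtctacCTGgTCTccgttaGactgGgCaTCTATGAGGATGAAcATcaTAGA
Tcl1b5: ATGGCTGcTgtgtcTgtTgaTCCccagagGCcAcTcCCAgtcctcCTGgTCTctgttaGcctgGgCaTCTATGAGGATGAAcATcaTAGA
Tcl1b3: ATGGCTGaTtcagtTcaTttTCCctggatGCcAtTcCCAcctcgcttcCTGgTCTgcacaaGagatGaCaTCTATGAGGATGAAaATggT
Tcl1b4: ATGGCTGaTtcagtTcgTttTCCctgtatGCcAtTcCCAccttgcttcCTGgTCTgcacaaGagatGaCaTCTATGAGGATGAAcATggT
Tcl1: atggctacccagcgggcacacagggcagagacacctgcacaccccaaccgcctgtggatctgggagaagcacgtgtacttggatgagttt
Of 369 columns in the alignment of the 5 Tcl1b coding sequences, 207 (56.1%) held the same base in every copy. Of the 90 bases shown, 49 were such bases in Tcl1b1, Tcl1b2 and Tcl1b5, and 46 in Tcl1b3 and Tcl1b4. The stretches lie at chr12:105147090-105147179 (Tcl1b2), chr12:105159761-105159850 (Tcl1b1), chr12:105176415-105176504 (Tcl1b5), chr12:105191101-105191190 (Tcl1b3) and chr12:105202479-105202568 (Tcl1b4) on the plus strand, and at chr12:105222563-105222652 on the minus strand (Tcl1). Over whole transcripts the Tcl1b copies shared 84.1% (Tcl1b1 and Tcl1b4) to 92.6% (Tcl1b5 and Tcl1b3) of the bases of the shorter one. Tcl1 shared 62 to 63.4% with them.

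**Figure D1:**
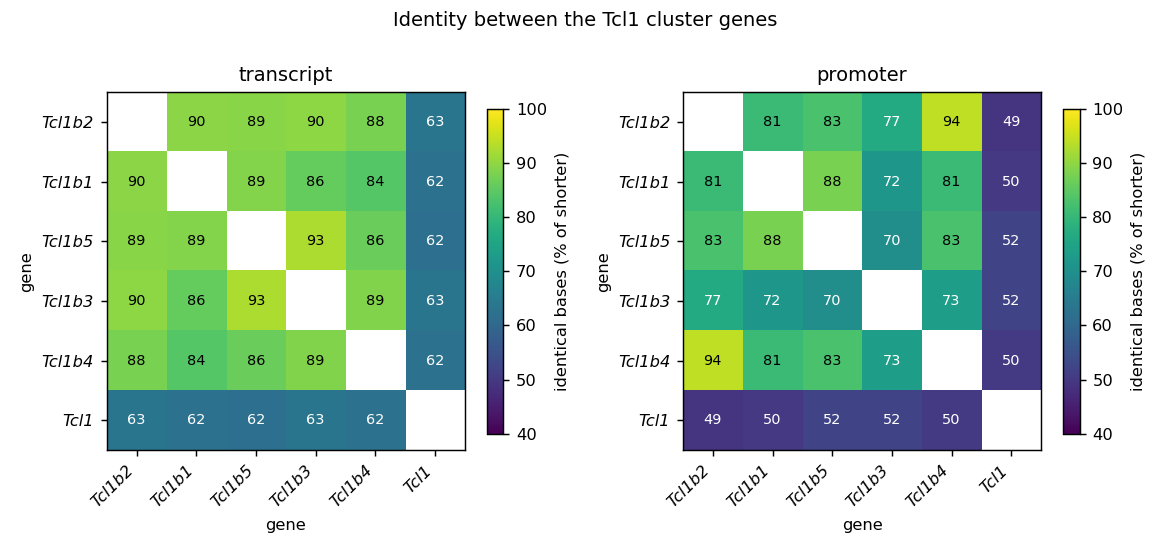
Identical bases between each pair of Tcl1 cluster genes, as a percentage of the shorter sequence, for the first annotated transcripts and for 300-base promoter windows, with genes in chromosome order on both axes. The Tcl1b copies form a block of 84.1 to 92.6% in the transcripts, and Tcl1 stands apart at 62 to 63.4%.

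How far the counts of single copies can be told apart depends on read length and on the treatment of reads that fit several genes, neither of which the labels give. Every stretch of 50, 100 and 150 bases of the 6 transcripts was therefore looked up in all annotated transcripts, on both strands. Of the 50-base stretches, 65.9% in Tcl1b3, 68.6% in Tcl1b2, 79.2% in Tcl1b5, 87% in Tcl1b1, 95.7% in Tcl1b4 and 100% in Tcl1 occurred in no other gene. At 100 bases the lowest share was 90.8%, in Tcl1b2. At 150 bases only Tcl1b2 and Tcl1b3 still had shared stretches, 33 in each, and the other 4 members had none. All shared stretches were shared within the cluster. The values of single Tcl1b copies are therefore less certain than that of Tcl1. Their sum is safer only if reads that fit several copies were split among them. If such reads were dropped, the sum lacks them too. The shares, ratios and levels per kb given below carry this limit.

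The start regions were compared in the same way. RefSeq windows of 300 bases (250 before and 50 after the start, GRCm38.p6) were found for all 6 genes, and among the Tcl1b copies they shared 69.7% (Tcl1b5 and Tcl1b3) to 94.3% (Tcl1b2 and Tcl1b4) of their bases. Tcl1 shared 49 to 52.3% with them. For 5 genes the 130 bases nearest to the RefSeq start that lie before it and in no annotated exon are shown, for the letters that the Tcl1b copies have in common. Capitals mark CANNTG, the letters of an E-box, which basic helix-loop-helix factors such as the oocyte factor FIGLA bind.
Tcl1b2: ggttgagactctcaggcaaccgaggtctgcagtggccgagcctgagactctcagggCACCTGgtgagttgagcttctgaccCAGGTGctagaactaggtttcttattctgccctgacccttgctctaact
Tcl1b1: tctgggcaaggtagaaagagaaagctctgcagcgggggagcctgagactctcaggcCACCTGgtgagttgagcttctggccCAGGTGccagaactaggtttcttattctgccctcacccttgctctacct
Tcl1b5: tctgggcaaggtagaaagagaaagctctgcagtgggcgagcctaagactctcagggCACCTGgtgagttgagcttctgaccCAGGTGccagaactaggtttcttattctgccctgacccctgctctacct
Tcl1b3: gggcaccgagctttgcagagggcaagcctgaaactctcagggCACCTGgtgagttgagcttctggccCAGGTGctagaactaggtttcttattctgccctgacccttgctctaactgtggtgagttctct
Tcl1: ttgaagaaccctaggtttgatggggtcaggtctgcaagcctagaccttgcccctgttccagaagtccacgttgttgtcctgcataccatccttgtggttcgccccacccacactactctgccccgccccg
The lines of the 4 Tcl1b genes hold the same pair of E-boxes, CACCTG and CAGGTG, each the other's reverse complement. These stretches lie at chr12:105146889-105147018 (Tcl1b2), chr12:105159560-105159689 (Tcl1b1), chr12:105176214-105176343 (Tcl1b5) and chr12:105190913-105191042 (Tcl1b3) on the plus strand, and the Tcl1 line at chr12:105222794-105222923 on the minus strand. In the 300-base windows this pair lay 74 and 49 bases before the RefSeq start in Tcl1b2 and Tcl1b5, 88 and 63 in Tcl1b1, 90 and 65 in Tcl1b3, and 61 and 36 in Tcl1b4. The Tcl1b4 line is not shown because all 250 bases before its RefSeq start lie in an annotated exon of a longer transcript. Tcl1 had a single CANNTG, 21 bases before its RefSeq start, inside an exon. That match was also CACCTG or its reverse complement. Of 32851 promoter windows in the table, 72.3% held CANNTG on either strand, and 17.6% held it 3 or more times, as Tcl1b1, Tcl1b2, Tcl1b4 and Tcl1b5 did. CACCTG on either strand, a subset of CANNTG that was looked up after the windows were seen, occurred in 20.2% of windows and at least 2 times in 2.88%. TATAAA (13.6% of windows), GATTA (22%) and TAATCC (7.06%, overlapping GATTA on the other strand by TAATC) were in none of the 6 windows. The longest run present in all 5 Tcl1b windows was 25 bases, gtggtgtccaaaataattccctgaa, and no other window of the table held it. A match of letters is not a bound site.

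The libraries held between 78865491 and 99011109 counts, and protein-coding genes took 91.2 to 91.7% of them. No pair of libraries agreed within sampling noise (chi-square over degrees of freedom at least 30.5). Levels are counts relative to TMM-scaled library size (CPM). In 2111 genes averaging 100 CPM or more, replicates differed by a median of 0.19 (absolute log2) in knockdown and 0.07 in control. No row of the table is named for SPENH0335, so the size of its knockdown was not measured here. Of 14 cumulus and granulosa markers 13, and all 10 sperm markers, were under 10 CPM in every library. The cumulus exception, Cyp19a1, was at 36.8 and 55.7 CPM in knockdown and at 47.4 and 38.6 CPM in control. At low levels, Has2 was at 0.932 and 0.458 CPM in knockdown and at 2.65 and 2.58 CPM in control. Foxl2 was at 0.228 and 0.0213 CPM in knockdown and at 0.891 and 1.1 CPM in control. Of the 11 cumulus and granulosa markers tested, 7 had a fold change above 0 and 4 below. Of 15 lymphoid markers, taken because human TCL1A is also expressed in lymphoid cells, 14 were under 10 CPM, with the T-cell marker Cd8a at 4.31 and 3.31 CPM in knockdown and 1.36 and 1.68 CPM in control. The lymphoid exception, Ms4a1, was at 119 and 151 CPM in knockdown and at 125 and 122 CPM in control.

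Tcl1 (ENSMUSG00000041359.14, 105216750 to 105222793) took more counts than almost any other gene of these embryos, with the 9th highest CPM of the 25565 genes. It had 323960 and 330850 counts in the knockdown libraries and 325467 and 299054 counts in the control libraries. Its scaled level was 3356 and 3523 CPM in knockdown and 3670 and 3723 CPM in control. Both knockdown libraries lay below both control libraries, but the gap between the groups was narrower than the difference between the knockdown replicates. These levels are relative to library size, so the amount of Tcl1 RNA per embryo was not measured. The mean was 3440 ± 118 CPM in knockdown and 3697 ± 37.2 CPM in control (SD, n = 2 each), a log2 fold change of -0.10 (SE 0.07, 95% interval -0.27 to 0.06, edgeR adjusted p 0.9999).

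Of the 5 Tcl1b copies, Tcl1b1 (ENSMUSG00000066359.6, 105159690 to 105166625) had the highest level. It was at 1336 and 1286 CPM in knockdown and at 1445 and 1440 CPM in control, and ranked 64th by CPM. Its log2 fold change was -0.14 (SE 0.07, 95% interval -0.32 to 0.05, edgeR adjusted p 0.9999). The control replicates were nearly equal, and the knockdown replicates lay apart from each other and below both.

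Tcl1b2 (ENSMUSG00000060863.12, 105146014 to 105155225), the first copy along the chromosome, was at 967 and 949 CPM in knockdown and at 1116 and 1115 CPM in control. Its log2 fold change of -0.22 (SE 0.08, 95% interval -0.41 to -0.03) was the furthest from 0 of the 6, with an unadjusted p of 0.0303 and an adjusted p of 0.9999 (edgeR). The gap between the groups was wider than either pair of replicates.

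Tcl1b3 (ENSMUSG00000068940.7, 105191043 to 105195612) was at 690 and 641 CPM in knockdown and at 775 and 769 CPM in control. Its log2 fold change was -0.21 (SE 0.09, unadjusted p 0.0499, adjusted p 0.9999, edgeR). The knockdown replicates differed by -0.11 on the log2 scale, the most of any member in that group. Tcl1b4 (ENSMUSG00000079007.4, 105201957 to 105206993) was at 523 and 513 CPM in knockdown and at 566 and 567 CPM in control, a log2 fold change of -0.13 (SE 0.08, edgeR adjusted p 0.9999). In both genes the groups did not overlap.

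Tcl1b5 (ENSMUSG00000000701.8, 105176344 to 105181145) was the lowest of the cluster in every library. It had 17013 and 17161 counts in knockdown and 19420 and 15694 counts in control. Scaled, it was at 176 and 183 CPM in knockdown and at 219 and 195 CPM in control, a log2 fold change of -0.21 (SE 0.11, 95% interval -0.49 to 0.07, edgeR adjusted p 0.9999). It was the only member whose control replicates differed by more than its knockdown replicates.

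**Figure D2:**
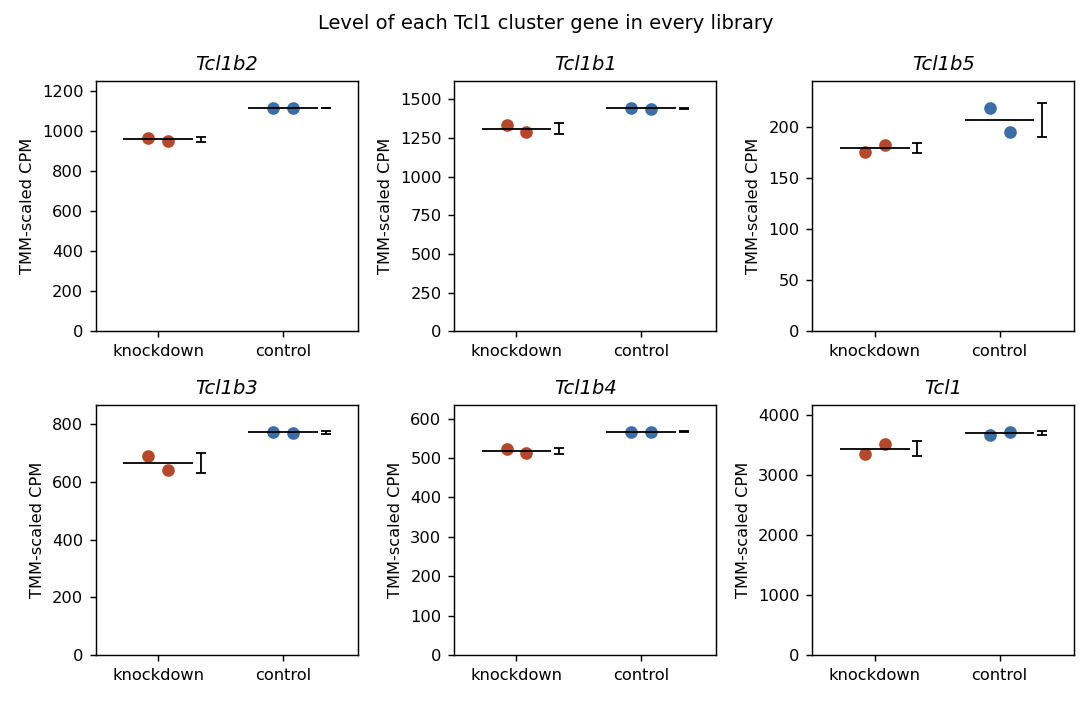
TMM-scaled CPM (vertical axis, from 0) of each Tcl1 cluster gene in the 2 knockdown libraries and the 2 control libraries. Points are libraries, the horizontal line is the group mean and the bar beside it the SD; in each of the 6 panels both knockdown points lie under both control points, as for Tcl1b2 at 967 and 949 CPM against 1116 and 1115 CPM.

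No member passed an adjusted p of 0.05, and of all 25565 genes tested 0 did (0%). At an unadjusted p under 0.05 there were 2 members, Tcl1b2 and Tcl1b3, both below 0. Of all genes 3.85% had such a p, 2.29% with a fold change below 0, and 3.13% of genes averaging 100 CPM or more. In all 6 the knockdown libraries lay below the control libraries without overlap. Such a gap in that direction was seen for 17.1% of all genes, and for 8.86% of those averaging 100 CPM or more. The 6 are neighbouring copies read in the same 4 libraries and share stretches of sequence, so they are not 6 independent observations. Their log2 fold changes ran from -0.22 to -0.10 with a median of -0.17, where the median over all tested genes was -0.0025 and over genes averaging 100 CPM or more 0.06. Of these more abundant genes, 4.97% had a log2 fold change at or below the members' median. The widest of the 6 intervals, that of Tcl1b5, ran from 71.4 to 105% of the control level.

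**Figure D3:**
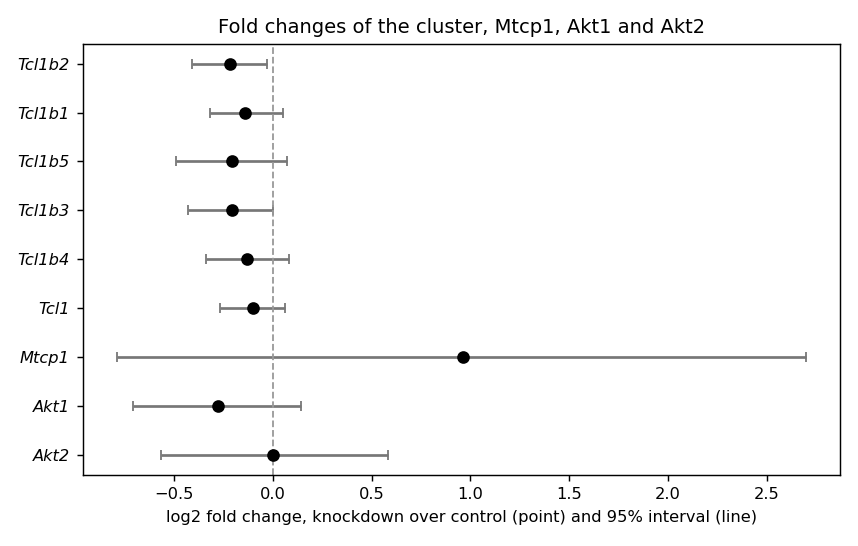
Log2 fold change, knockdown over control, with its 95% interval from edgeR, for the 6 cluster genes, for Mtcp1 and for Akt1 and Akt2. The 6 cluster genes lie between -0.22 and -0.10 with narrow intervals, while the interval of Mtcp1 runs from -0.79 to 2.70.

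Summed over the 6 genes, the cluster held 0.722 and 0.673% of all counts in knockdown and 0.786 and 0.795% in control. As scaled CPM the sum was 7049 and 7094 in knockdown and 7791 and 7809 in control, a mean of 7071 ± 32 CPM against 7800 ± 12.9 CPM (SD, n = 2 each) and a log2 ratio of -0.14. The 5 Tcl1b copies alone summed to 3693 and 3571 CPM in knockdown and to 4121 and 4086 CPM in control, a log2 ratio of -0.18. No test was made of these sums, since 2 libraries against 2 cannot go below an exact p of 0.333.

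The make-up of the cluster was nearly constant. Tcl1 took 47.6 and 49.7% of the cluster's counts in knockdown and 47.1 and 47.7% in control. Tcl1b1 took 18.1 to 19%, Tcl1b2 13.4 to 14.3%, Tcl1b3 9.03 to 9.95%, Tcl1b4 7.23 to 7.43% and Tcl1b5 2.5 to 2.81% over the 4 libraries. Counts of the Tcl1b copies together were 1.1 and 1.014 times those of Tcl1 in knockdown and 1.123 and 1.098 times in control. Knockdown replicate 2 thus had the lowest ratio, and knockdown replicate 1 lay between the control libraries.

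Levels of different genes can be set side by side only per length, here as CPM per kb of merged exon. On that scale Tcl1 was at 1864 ± 64.1 in knockdown and 2004 ± 20.2 in control. Tcl1b1 was at 1261 ± 34.2 in knockdown and 1387 ± 3.42 in control, and Tcl1b2 at 762 ± 10.5 in knockdown and 887 ± 0.552 in control. Tcl1b3 was at 637 ± 32.9 in knockdown and 738 ± 4.3 in control. Tcl1b4 was at 346 ± 5.08 in knockdown and 379 ± 0.758 in control, and Tcl1b5 at 170 ± 4.36 in knockdown and 196 ± 15.8 in control (SD, n = 2 each). The order Tcl1, Tcl1b1, Tcl1b2, Tcl1b3, Tcl1b4, Tcl1b5 was the same in all 4 libraries, and within each group every member's replicates lay clear of those of the next. Of these steps the one from Tcl1b2 to Tcl1b3 was the smallest, and there the control level of Tcl1b3 came close to the knockdown level of Tcl1b2. By this scale Tcl1 ranked 16th and Tcl1b1 29th of all tested genes.

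**Figure D4:**
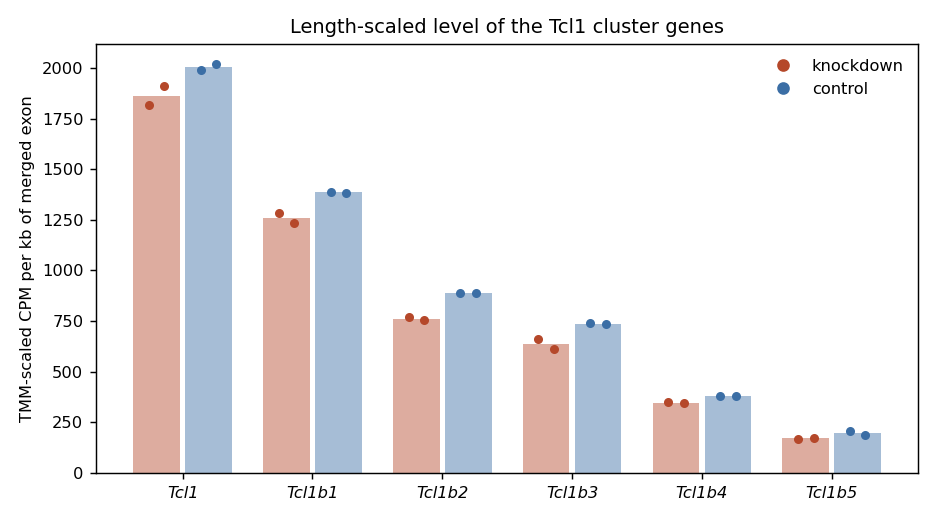
TMM-scaled CPM per kb of merged exon (vertical axis, from 0) of the 6 cluster genes, ordered from high to low, with knockdown left of control. Bars are means of 2 libraries and points the libraries; levels run from Tcl1 at 1864 in knockdown and 2004 in control to Tcl1b5 at 170 and 196.

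Mtcp1, the family member outside the cluster, on the X chromosome (75410444 to 75416588), ranked 15054th per kb of exon. It was at 2.6 and 4.93 CPM in knockdown and at 3 and 0.871 CPM in control. The groups overlapped, and its log2 fold change of 0.96 had a 95% interval from -0.79 to 2.70 (edgeR adjusted p 0.9999).

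Genes around the cluster had lower levels per kb of exon. Within 500 kb on either side the table holds 24 other genes, 14 of which passed the filter. Per kb of exon the highest of them ranked 1873rd of all tested genes, whereas Tcl1b5, the lowest member, ranked 249th. The nearest protein-coding genes are 103 kb and 111 kb away. On the left, Glrx5, a mitochondrial glutaredoxin of iron-sulphur cluster assembly, was at 48.9 and 47.2 CPM in knockdown and at 45.1 and 46.2 CPM in control. On the right, Tunar was at 0.466 and 0.0639 CPM in knockdown and at 0.383 and 0.734 CPM in control. Dicer1, the ribonuclease that cuts small RNAs from double-stranded precursors, 394 kb to the left, had that highest rank, with 491 and 486 CPM in knockdown and 521 and 496 CPM in control. By CPM without length scaling Dicer1 ranked 346th, above Tcl1b5, which ranked 1096th. The merged exons of Dicer1 hold 16750 bases and its longest transcript 9851, so its level per kb depends on the length used. Dicer1 had a log2 fold change of -0.06 (SE 0.09, edgeR adjusted p 0.9999).

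Syne3, Clmn and Atg2b each stayed under 20 CPM in every library, and their 95% intervals spanned 0. No neighbour passed an adjusted p of 0.05. Of the 14 tested, 2 had an unadjusted p under 0.05 (edgeR), both below 0. Over all tested genes 3.85% had such a p in either direction. Bdkrb1, a bradykinin receptor 380 kb to the right, was at 4.99 and 4.83 CPM in knockdown and at 8.19 and 9.32 CPM in control, a log2 fold change of -0.83 (edgeR, SE 0.28, adjusted p 0.9999). D430019H16Rik had 0 counts in both knockdown libraries and 49 and 11 counts in control. Gm47672, a processed pseudogene 10.6 kb from the cluster and its nearest annotated neighbour, was at 7.12 and 6.57 CPM in knockdown and at 7.35 and 7.16 CPM in control.

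**Figure D5:**
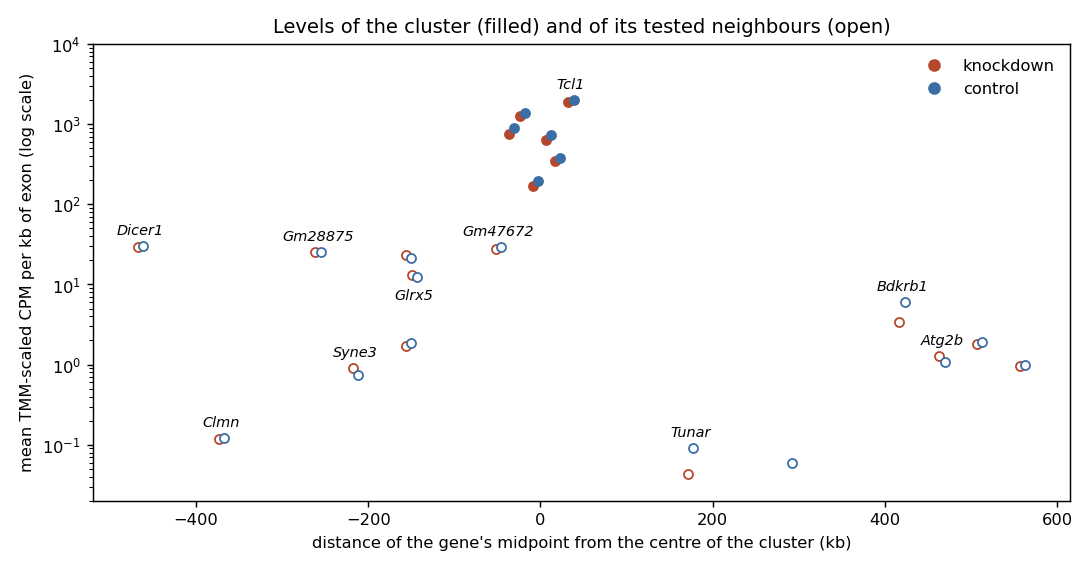
Mean TMM-scaled CPM per kb of exon (log axis) of the 6 cluster genes (filled) and of the 14 neighbours that passed the filter (open), by distance of the gene's midpoint from the centre of the cluster in kb, with knockdown and control points side by side; a mean of 0 is not drawn. All 6 cluster genes lie above all neighbours, from Tcl1 at 1864 CPM per kb in knockdown and 2004 in control to Tcl1b5 at 170 and 196.

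Akt1 and Akt2 encode kinases that TCL1 proteins bind, and ranked 5594th and 9410th per kb of exon. Akt1 was at 26.5 and 24.2 CPM in knockdown and at 30.5 and 31.2 CPM in control (log2 fold change -0.28, SE 0.17, edgeR adjusted p 0.9999). Akt2 was at 17.1 and 16.9 CPM in knockdown and at 19.2 and 14.7 CPM in control, with overlapping groups.

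Of 25 kinases, phosphatases and adaptors of the PI3K-AKT pathway, all 25 were tested and 0 passed in either direction, also at an unadjusted p under 0.05 (edgeR). Their median log2 fold change was 0.07, with 17 above and 8 below 0. Inpp4b, a phosphoinositide phosphatase, was at 2.69 and 1.93 CPM in knockdown and at 1.2 and 0.261 CPM in control. Of 22 AKT substrates and downstream genes 0 passed, and 0 had an unadjusted p under 0.05 (edgeR). Their median was 0.02, with 12 above and 10 below 0. Among them Cdc25b, the phosphatase that activates CDK1 for mitosis, was at 30.3 and 40.7 CPM in knockdown and at 25.9 and 27.3 CPM in control. Foxo3, a transcription factor that AKT keeps out of the nucleus, was at 431 and 442 CPM in knockdown and at 361 and 402 CPM in control.

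Set beside the cluster, 20 other maternal oocyte transcripts had a median log2 fold change of -0.19, with 16 below and 4 above 0. None passed the adjusted threshold, and 3 had an unadjusted p under 0.05, all below 0 (edgeR), where 2.29% of all tested genes had such a p in that direction. Of all tested genes 50.3%, and of those averaging 100 CPM or more 32.5%, had a fold change below 0. The maternal transcripts summed to 11628 and 12612 CPM in knockdown and to 13229 and 13048 CPM in control, without overlap between the groups, in the same 4 libraries as the cluster. Gdf9, which encodes a growth factor secreted by oocytes, had 273 and 299 CPM in knockdown and 387 and 369 CPM in control (log2 fold change -0.40, SE 0.10, edgeR adjusted p 0.9999). Nlrp14 was at 593 and 665 CPM in knockdown and at 893 and 749 CPM in control (log2 fold change -0.38, SE 0.12, edgeR adjusted p 0.9999). Btg4, an adaptor for the removal of maternal mRNA poly(A) tails, was at 2278 and 2315 CPM in knockdown and at 2635 and 2622 CPM in control, a log2 fold change of -0.19 (SE 0.07, edgeR adjusted p 0.9999). Of 11 genes transcribed transiently at the 2-cell stage the median was 0.15, with 7 above and 4 below 0. None passed the adjusted threshold. An unadjusted p under 0.05 (edgeR) was reached by 4, with 3 above 0 (Zscan4c, Zscan4d and Zscan4f) and 1 below 0 (Arg2). Of all tested genes 3.85% had such a p in either direction. Those 3 genes belong to the same family and were read in the same 4 libraries, so they are not 3 independent observations. Zscan4f was at 238 and 211 CPM in knockdown and at 147 and 158 CPM in control, and Arg2 at 78.9 and 85.1 CPM in knockdown and at 135 and 109 CPM in control. The list summed to 1262 and 1198 CPM in knockdown and to 1082 and 1097 CPM in control. These sums did not overlap either, and lay in the opposite direction to the maternal list. That gap rests on the 3 Zscan4 genes and is not a trait of the whole list. Mean levels in knockdown and control were 155 and 112 CPM for Zscan4c, 180 and 140 for Zscan4d and 225 and 152 for Zscan4f. The mean sums of the list were 1230 CPM in knockdown and 1089 CPM in control. The part of these 2 lists' differences in the cluster's values was not tested.

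The genes whose pattern over the 4 libraries was most like that of the cluster sum were looked for among 8179 genes averaging 10 CPM or more. Likeness was the root mean square difference of log2 CPM, each gene centred on its own mean. The closest were Far1, Dnm2, Slc9b1, Cops3 and Orc1, at differences of 0.0106, 0.014, 0.0153, 0.0155 and 0.0159. Far1, a fatty acyl-CoA reductase gene, was at 116 and 116 CPM in knockdown and at 128 and 126 CPM in control. Orc1, a subunit of the origin recognition complex, was at 46.3 and 45.5 CPM in knockdown and at 49.8 and 50 CPM in control. None of the 5 lies on chromosome 12, and 5 genes chosen as nearest of 8179 over 4 libraries are a description only.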

How the data were processed

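The authors deposited whole-number counts per gene for 4 libraries, by their values not normalized, named by versioned Ensembl IDs. Tools listed in the submitters' processing notes are HISAT2 2.1.0, Picard 2.18.2, CASAVA 1.8 and Trim Galore 0.6.5, with the build mm10. Counting tool, annotation, strand setting and handling of duplicate or multiply mapped reads were not given in the sources used here. Labels name no molecular identifiers. Symbols and positions came from GENCODE M21 (53620 of 53715 rows matched; the other 95 took no more than 0.0164% of counts in any library). The members and lists were chosen with earlier results of these data known.

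Counts were tested with edgeR 4.0.16 (R 4.3.3): filterByExpr with a minimum of 10 counts, TMM scaling, quasi-likelihood F-test of knockdown against control with group as the only term, two-sided, Benjamini-Hochberg adjusted over 25565 genes, threshold 0.05. The SE is the log2 fold change over the square root of F. The fit was tested on simulated data. Alternatives were DESeq2 1.42.0, limma-voom (limma 3.58.1), other size factors, no filter, a replicate block and leaving out each library. Transcripts and promoter windows were aligned pairwise with Biopython 1.88, and the coding sequences with MAFFT 7.526. Named genes were all members, Mtcp1, the 8 nearest tested protein-coding neighbours, Akt1 and Akt2, the 2 smallest p of each list and the 5 nearest patterns; some genes that this rule picks are not reported here. Btg4, Zscan4c, Zscan4d, Ms4a1, Cyp19a1 and Gm47672 fall outside it and were chosen after their values were seen.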

Additional observations from a re-analysis of the deposited data

How the results depend on the processing

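The fold changes of the 6 members were below 0 under all 9 alternatives, from -0.29 to -0.07. That sign was nearly fixed beforehand and is no separate support. In each member both knockdown libraries lay below both control libraries, and every alternative used those same libraries. With 2 libraries kept in each group, no alternative brought a member under an adjusted p of 0.05. With libraries left out in turn, an arm rests on 1 library that is assumed to vary like the others. The summed level of the cluster had a log2 ratio of -0.18 with library totals and -0.13 with RLE size factors, against -0.14 with TMM. Over all genes, DESeq2 called 18 higher and 31 lower, while leaving out 1 library called 0 to 2 higher and 0 to 1 lower: 2 higher and 1 lower without knockdown replicate 1, and 1 and 1 without knockdown replicate 2. Unadjusted p under 0.05 was reached by 799 genes in limma-voom (0 called) and 984 in edgeR, and by 531 to 3659 with 1 library left out, most without knockdown replicate 1 (3659) and replicate 2 (2255). The unadjusted p of Tcl1b2 and Tcl1b3 was 0.0413 and 0.0607 with RLE size factors, 0.0525 and 0.0715 without the filter on low counts, 0.137 and 0.157 in DESeq2, and 0.00837 and 0.0224 in limma-voom, where Tcl1b1 (0.043) and Tcl1 (0.0447) were also under 0.05. The replicate numbers are not known to pair libraries (same-numbered libraries deviated with a correlation of -0.21). With the replicate block the members' fold changes ran from -0.22 to -0.10, 0 genes were called, and 0 members had an unadjusted p under 0.05. A crossed pairing, added after seeing the data, called 0 genes. Using the longest transcript as length kept the order of the members, with Tcl1 at 2552 CPM per kb in place of 1934. With 15694 to 330850 counts per member and library, the spread between 2 libraries a group, not counting depth, limits these values.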
